A study of Mus musculus with 2 samples.

Results

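The 34 genes described here are named for hypoxia and glycolysis, and they were taken by symbol from the gene rows of both count matrices. They held 35 of 32285 rows and 34 of 32245 symbols, because Aldoa is the symbol of 2 rows, of which the one with nearly all UMIs was used. MC38 tumors were grown under the skin of wild-type (Lmo7+/+, labelled WT) and Lmo7 knockout (Lmo7-/-, labelled KO) C57BL/6 mice. MC38 is a mouse colon cancer cell line. The hosts were females of 6 to 8 weeks at inoculation and the knockout was global, while the injected MC38 cells carried their own Lmo7 in both groups. Each genotype gave 1 single-cell library, the sources used here do not say how many mice entered it, and none of the comparisons between genotypes below has a replicate.

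When oxygen is short, the prolyl hydroxylases encoded by Egln1 and Egln3 stop marking the subunit HIF-1α for degradation, and the HIF transcription factors switch on genes for glucose uptake, glycolysis, lactate export, mitochondrial turnover and vessel growth. Solid tumors outgrow their vessels, so cells of the same type can meet very different oxygen levels within 1 tumor. Macrophages in poorly supplied regions are known to turn on many of the same genes, Vegfa and Arg1 among them.

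After filtering, 13542 cells were kept in the WT-labelled and 11860 in the KO-labelled library, out of 16208 and 15163 droplets with 98582479 and 80648345 UMIs, and 279 barcodes occurred in both libraries. The cells were clustered without the 34 genes and without the other hypoxia genes, and clusters were named by marker genes. Tumor cell-like cells numbered 7364 and 5303 in the WT- and KO-labelled libraries, macrophage-like cells 3114 and 3847, monocyte-like cells (named from markers of M-MDSC, monocytic myeloid-derived suppressor cells) 1062 and 852, and T or NK-like cells 576 and 730. Dendritic-like (317 and 207), fibroblast-like (128 and 97) and endothelial-like cells (99 and 74) were rarer. The tumor cell-like class reached 5 CPM (UMIs of a gene per 1000000 UMIs of the class in that library) for only 6 of the 14 markers listed for it and was set apart by its chromosome profile; the defining epithelial marker Epcam stood at 4.04 and 2.04 CPM there. The leukocyte gene Ptprc stood at 5.77 and 5.57 CPM in it, against 452 and 491 CPM in macrophage-like cells, where 12 of 12 markers reached 5 CPM. Lmo7 itself did not check the labels. It gave 8 and 10 UMIs in all macrophage-like cells, and endothelial-like cells held 18 UMIs of it in the WT-labelled and 12 in the KO-labelled library, so the libraries are named below by their labels. The part of the transcript that the knockout removes is not given in the sources used here.

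The promoters of the genes that were highest in the hypoxia-high clusters described below are shown first, because the letters ACGTG and GCGTG form the core that HIF binds. RefSeq start sites on GRCm38.p6 were found for 32 of the 34 genes, and Bnip3l and Ndrg1 had no entry. Within the 250 bases before a start site, ACGTG occurred on either strand in 19 of the 32 genes (59.4%, against 18.5% of all 27025 genes), GCGTG in 21 (65.6%, against 30.9%), and at least 1 of the motifs in 29 (90.6%, against 41.5%). A gene with several start sites was counted once if any window held the motif, which favors genes with more start sites. Counted by window, at least 1 of the motifs occurred in 76.6% of the 47 windows of the set, against 38.6% of all 32851 windows. The comparison covers all genes, whether or not they are expressed here. The stretches below stop before the first base that lies in an annotated exon, and those of Ankrd37 and P4ha2 lie inside the genes as GENCODE draws them, downstream of a more distant start. They carry the motifs in capitals, with both strands marked, so that CACGT and CACGC are the same motifs on the other strand. A match of letters does not show that a factor bound there.

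Ankrd37 (chr8:45999868-46000100, minus strand): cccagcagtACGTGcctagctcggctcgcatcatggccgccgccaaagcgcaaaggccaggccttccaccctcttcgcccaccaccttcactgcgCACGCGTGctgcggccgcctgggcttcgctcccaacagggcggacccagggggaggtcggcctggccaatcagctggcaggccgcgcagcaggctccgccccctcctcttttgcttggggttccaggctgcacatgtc

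Bnip3 (chr7:138909520-138909756, minus strand): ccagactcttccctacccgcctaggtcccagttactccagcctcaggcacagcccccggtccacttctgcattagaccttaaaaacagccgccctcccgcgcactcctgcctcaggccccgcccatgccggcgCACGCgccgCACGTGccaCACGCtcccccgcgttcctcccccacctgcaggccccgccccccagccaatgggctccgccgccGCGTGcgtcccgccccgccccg

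Egln3 (chr12:54203875-54204124, minus strand): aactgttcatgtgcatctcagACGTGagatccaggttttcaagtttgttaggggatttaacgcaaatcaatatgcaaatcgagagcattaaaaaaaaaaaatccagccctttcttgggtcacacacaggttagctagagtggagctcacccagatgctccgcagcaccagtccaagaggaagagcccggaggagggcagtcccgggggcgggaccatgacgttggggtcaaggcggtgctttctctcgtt

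P4ha2 (chr11:54100674-54100923, plus strand): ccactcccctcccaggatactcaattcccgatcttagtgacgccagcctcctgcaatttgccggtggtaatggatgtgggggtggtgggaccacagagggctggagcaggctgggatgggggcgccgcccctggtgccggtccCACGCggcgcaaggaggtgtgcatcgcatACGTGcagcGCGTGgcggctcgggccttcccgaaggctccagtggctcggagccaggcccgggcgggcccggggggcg

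Slc2a1 (chr4:119108495-119108710, plus strand): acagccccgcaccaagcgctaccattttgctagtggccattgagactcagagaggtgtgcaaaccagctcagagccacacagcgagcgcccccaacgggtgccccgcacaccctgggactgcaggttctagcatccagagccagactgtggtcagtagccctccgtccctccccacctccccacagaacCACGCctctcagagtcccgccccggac

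The Bnip3 stretch held 5 motif matches, the largest number of these 5 genes; ACGTG on both strands overlaps there as CACGTG. The Ankrd37 and P4ha2 stretches held 3 each, and those of Egln3 and Slc2a1 held 1 each.

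Across cell classes, 26 of the 34 genes were higher in tumor cell-like than in macrophage-like cells in both libraries, and 6 were lower in both. All levels are in CPM. The other 2, Aldoc and Adm, changed order between the libraries. The share of all genes with either order was not computed, so these counts do not set the 34 genes apart from others. The widest gaps belonged to P4ha2, which encodes a collagen prolyl hydroxylase and stood at 201 and 212 CPM in tumor cell-like against 12.2 and 15.2 CPM in macrophage-like cells of the WT- and KO-labelled libraries. Car9, which encodes a membrane carbonic anhydrase, stood at 206 and 252 CPM in tumor cell-like and at 17.9 and 19.6 CPM in macrophage-like cells. Egln3 (172 and 228 against 19.5 and 24.9 CPM) and the hypoxia-induced Ankrd37 (34.8 and 58.5 against 4.57 and 6.82 CPM) followed. In log2 units these 4 genes were higher in tumor cell-like cells by 2.93 to 4.04.

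**Figure D1:**
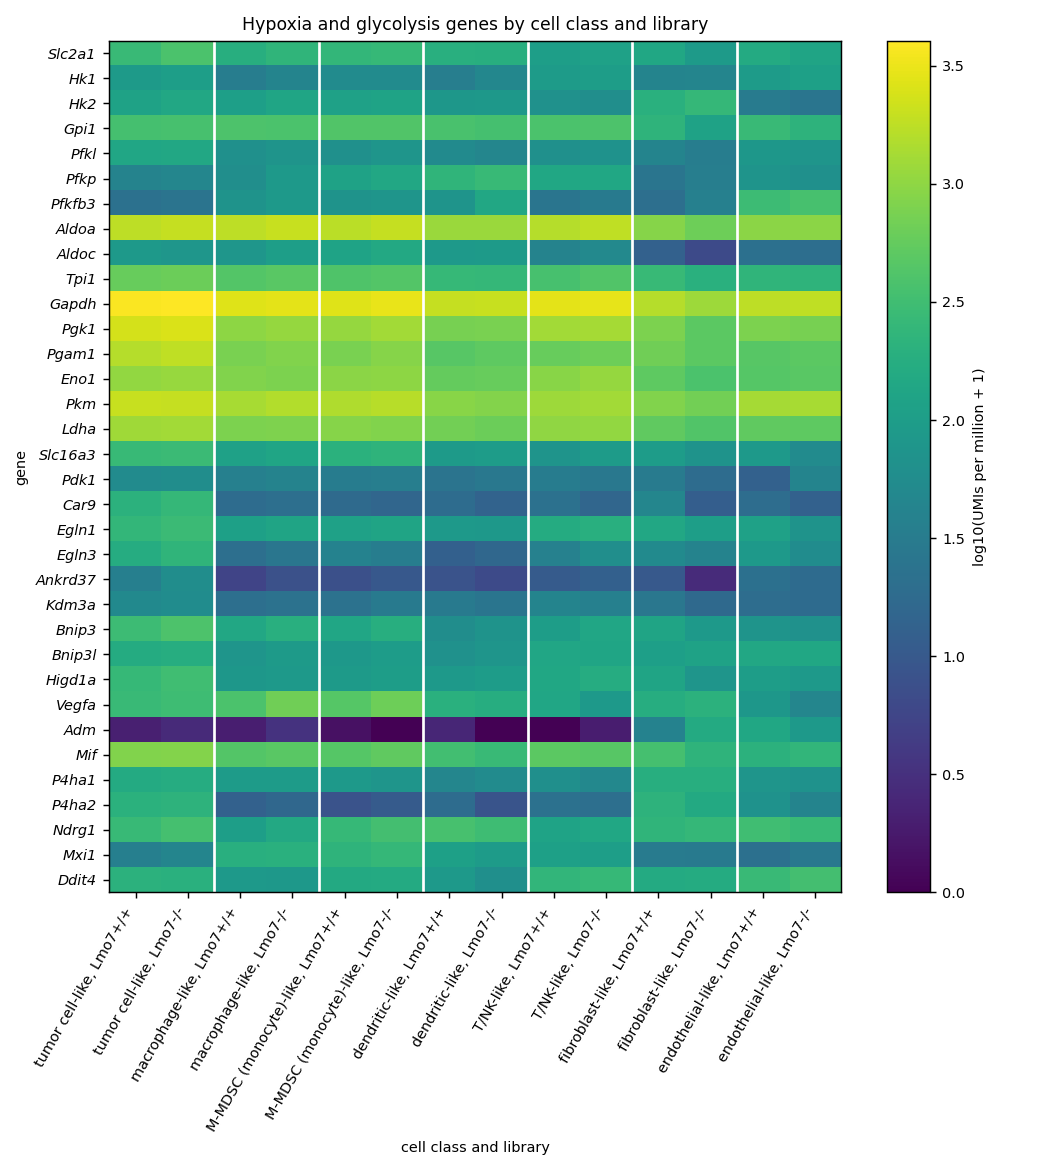
Level of each of the 34 genes (rows, grouped by role) in 7 cell classes of both libraries (columns), as log10 of CPM plus 1. Car9 and Egln3 are brightest in tumor cell-like cells, P4ha2 in tumor cell-like and fibroblast-like cells, Vegfa in macrophage-like and monocyte-like cells, and Pfkfb3 in endothelial-like cells.

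Glycolytic enzymes were spread over all classes. The 15 genes of glucose uptake and glycolysis took 1.43% and 1.53% of all UMIs in tumor cell-like cells and 0.987% and 1.08% in macrophage-like cells. Gapdh stood at 3828 and 4038 CPM in tumor cell-like against 2735 and 2856 CPM in macrophage-like cells. Pgk1, which makes the first ATP of glycolysis, stood at 2367 and 2503 against 999.9 and 1101 CPM. Pgam1 (1597 and 1794 against 758 and 828 CPM) showed a similar gap, while the Aldoa levels of 1745 and 1926 CPM in tumor cell-like cells lay just below the 1758 and 2035 CPM of macrophage-like cells. Ldha, whose enzyme makes lactate, stood at 1240 and 1256 against 796 and 800.2 CPM, and the lactate exporter Slc16a3 at 266 and 287 against 115 and 133 CPM.

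The 6 genes that were lower in tumor cell-like cells in both libraries were Vegfa, Gpi1, Pfkp, Pfkfb3, Aldoa and Mxi1. Mxi1, a partner of MAX that opposes MYC, stood at 34.9 and 43.2 CPM in tumor cell-like and at 187 and 193 CPM in macrophage-like cells. Pfkfb3, whose enzyme makes the activator of phosphofructokinase, was low in tumor cell-like cells (21.4 and 23.3 CPM) and highest of the 7 classes in endothelial-like cells (291 and 356 CPM). Vegfa, the main vessel growth factor, stood at 277 and 301 CPM in tumor cell-like, 383 and 672 CPM in macrophage-like and 459 and 654 CPM in monocyte-like cells. Adm, a peptide that widens vessels, was nearly absent from tumor cell-like cells (1.04 and 1.71 CPM) and stood at 142 and 89.5 CPM in endothelial-like and 38.4 and 161 CPM in fibroblast-like cells, from 70, 37, 25 and 89 UMIs.

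Members of 1 enzyme family were used in different proportions by different classes. Each share is a percentage of the family's UMIs in a class, with no correction for how well each transcript is captured. Of the hexokinase UMIs, Hk2 took 56.0% and 57.9% and Hk1 43.6% and 41.6% in tumor cell-like cells, with Hk3 at 0.444% and 0.427%. In macrophage-like cells Hk3 took 33.9% and 42.5%, Hk2 50.8% and 43.7%, and Hk1 only 15.3% and 13.9%. Of the phosphofructokinase UMIs, Pfkl took 66.6% and 67.1% in tumor cell-like cells, whereas Pfkp took 80.8% and 84.8% in dendritic-like cells. Egln3 supplied 38.4% and 41.7% of the Egln family in tumor cell-like cells and 10.0% and 11.4% in macrophage-like cells, and P4ha2 54.8% and 54.8% against 11.5% and 13.8% of the collagen prolyl hydroxylase family. Ldha supplied over 94% of its family in every one of the 7 classes in both libraries.

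Car9 was low in host cells, where genes of the tumor cell line were also found. Among genes listed for the tumor cell line, the 4 that reached 50 CPM in tumor cell-like cells (Hmga2, Igf2bp2, Tm4sf1 and Cav1) had a median of 3.87% and 3.56% of their tumor level in macrophage-like cells, and 10.6% and 10.1% in T or NK-like cells. In cells thinned to 1500 UMIs each, 20.2% and 25.6% of tumor cell-like cells held a Car9 UMI, against 2.80% and 2.76% of macrophage-like and 2.12% and 1.12% of T or NK-like cells. Whether the host UMIs came from the host cells was not tested. Without thinning the Car9 shares were 36.4% and 41.7%, 9.79% and 8.53%, and 5.03% and 3.15% in the same order. The thinned Vegfa shares were 32.04% and 34.2% in tumor cell-like, 35.2% and 54.4% in macrophage-like and 12.3% and 10.1% in T or NK-like cells, and 63.2% and 65.5%, 60.4% and 75.4%, and 19.4% and 14.5% without thinning. Cells under 1500 UMIs were left out, 1128 and 799 tumor cell-like, 152 and 331 macrophage-like and 152 and 194 T or NK-like cells. The median depth before thinning was 4970 and 5257 UMIs in tumor cell-like, 5409 and 4480 in macrophage-like, and 2152 and 2202 in T or NK-like cells.

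Many of the genes were raised together in 1 cluster of the tumor cell-like cells. Of 8 clusters within the class, cluster 7 (845 cells, led by Tnfrsf9, Lgals3 and Gpr137b) had the highest level of 27 other hypoxia targets that are not among the 34 genes, and it is called hypoxia-high below for that reason, by a rule chosen after the data were seen. In it 20 of the 34 genes were higher than in the other tumor cell-like cells by a log2 ratio of 1 or more in both libraries, against 2.82% of 12902 genes tested, and none was lower by 1, against 7.48%. The median ratio of the 34 genes was 1.23 and 1.31, against -0.08 and -0.09 over all genes. As the cluster was drawn from the same cells, these ratios describe it and no test was made.

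Glucose uptake led the list. Slc2a1, which encodes the glucose transporter GLUT1, stood at 1708 and 2019 CPM in cluster 7 and at 205 and 244 CPM in the other tumor cell-like cells, a log2 ratio of 3.06 (95% interval 3.01 to 3.10) and 3.05 (3.01 to 3.09). The intervals given here and below cover counting error only. Among the enzymes of glycolysis, Gpi1 (904 and 1040 against 323 and 305 CPM), Aldoa (3985 and 4458 against 1634 and 1702 CPM) and Hk2 (267 and 343 against 112 and 125 CPM) were higher by 1.26 to 1.77. Pgk1 (1.04 and 1.06), Hk1 (1.04 and 1.05) and Aldoc (1.05 and 1.58) also reached 1 in both libraries, and Gapdh lay at 0.98 and 1.08. Pfkp lay at 1.30 and 0.90 and Pfkl at 0.88 and 0.92. Smaller ratios were seen for other enzymes, with Pgam1 at 0.69 and 0.76, Pkm at 0.56 and 0.72, Tpi1 at 0.41 and 0.47 and Eno1 at 0.38 and 0.37. Pfkfb3 was the exception to the direction, at 20.1 and 15.7 CPM in the cluster against 21.5 and 23.9 CPM outside it.

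The genes that handle pyruvate and lactate were raised less than Car9. Ldha lay at a log2 ratio of 0.48 and 0.59, Slc16a3 at 0.58 and 0.55, and Pdk1, whose enzyme inhibits pyruvate dehydrogenase, at 0.74 and 0.92. Car9 stood at 713 and 850.3 CPM in cluster 7 and at 181 and 199 CPM outside it, with ratios whose intervals ran from 1.91 to 2.04 and from 2.04 to 2.16.

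Genes of oxygen sensing and feedback were among those raised most. Ankrd37 stood at 178 and 252 CPM against 27.8 and 41.4 CPM (2.68 and 2.61), Egln3 at 587 and 674 against 151 and 189 CPM (1.96 and 1.84), Egln1 at 748 and 742 against 218 and 248 CPM (1.78 and 1.58), and the histone demethylase gene Kdm3a at 161 and 189 against 45.7 and 44.7 CPM (1.81 and 2.08). The transcripts of the factors are not among the 34 genes. Hif1a lay at 0.01 and -0.12 in this cluster and Arnt at 0.82 and 0.87.

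The mitophagy receptor gene Bnip3 stood at 1033 and 1151 CPM in cluster 7 against 256 and 327 CPM outside it (2.02 and 1.81). Its relative Bnip3l (1.30 and 1.45) and the mitochondrial Higd1a (1.27 and 1.04) followed at lower ratios. Ndrg1, a growth-restraining gene, stood at 1317 and 1419 against 217 and 252 CPM (2.60 and 2.49), and Mxi1 lay at 2.16 and 2.02. Ddit4, an inhibitor of mTORC1 signalling, lay at 0.73 and 0.57. Both collagen hydroxylase genes were higher, P4ha2 by 2.13 and 2.18, and P4ha1 at 413 and 446 against 146 and 145 CPM. Vegfa reached 602 and 733 CPM against 261 and 263 CPM (1.21 and 1.48), whereas the cytokine gene Mif lay at 0.36 and 0.30. Adm stood at 1.36 and 3.59 CPM in the cluster.

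Other gene lists moved with this cluster. Of 28 other hypoxia targets, 27 could be tested and 12 and 15 were higher by 1 or more in the WT- and KO-labelled libraries, Ero1l most of all (1579 and 2168 CPM in the cluster, log2 ratio 2.95 and 3.09); this list chose the cluster, so its level there is no finding. Of 14 proliferation genes, 13 were lower by 1 or more in each library, with a median of -3.24 and -3.20. The 20 genes of the tricarboxylic acid cycle had a median of -0.30 and -0.33 and the 7 genes of the pentose phosphate pathway -0.41 and -0.15. Cells of the cluster had a mean mitochondrial share of UMIs of 5.60% and a median depth of 6709 UMIs. Their share of tumor cell-like cells was 4.81% in the WT-labelled and 9.26% in the KO-labelled library, a difference of 4.45 percentage points (95% interval 3.54 to 5.39), which is a difference between 2 libraries.

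**Figure D2:**
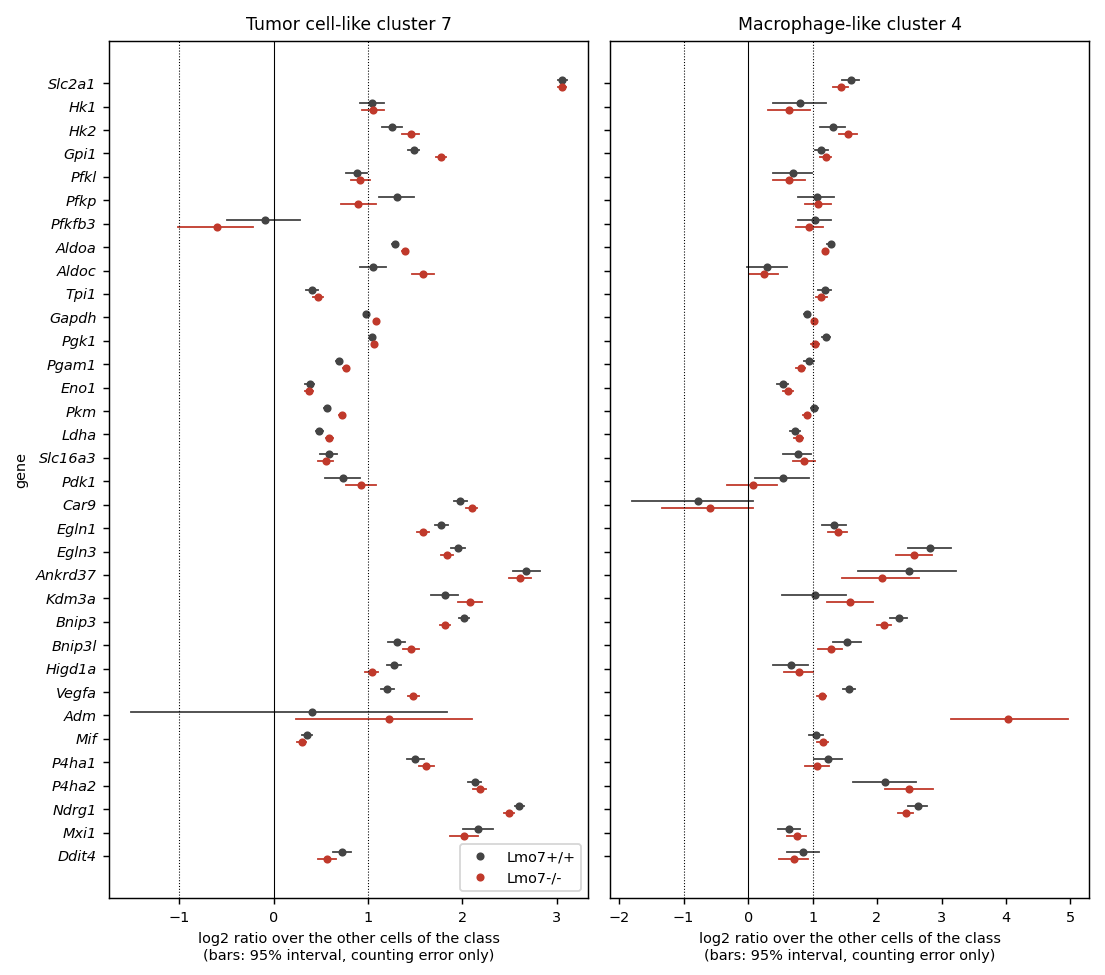
Log2 ratio of each gene in tumor cell-like cluster 7 (left) and macrophage-like cluster 4 (right) over the other cells of its class, for the WT-labelled (grey) and KO-labelled (red) library; bars are 95% intervals of counting error and dotted lines mark -1 and 1. Slc2a1 lies at 3.06 and 3.05 in the tumor cells and at 1.59 and 1.44 in the macrophages, while Car9 lies near 2 on the left and below 0 on the right.

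Among macrophage-like cells, cluster 4 had the highest level of the other hypoxia targets. It held 563 cells, was led by Mmp12, Gpnmb and Hspa1b, and was the cluster with the highest level of the markers listed for an Arg1 state. Here 18 of 33 genes were higher than in the other macrophage-like cells by 1 or more in both libraries, against 2.95% of 11033 genes tested, and none was lower by 1, against 5.33%. With doublets removed the count of higher genes was 10. The median ratio was 1.05 and 1.08, against -0.11 and -0.15 over all genes. The share of macrophage-like cells in this cluster was 7.48% in the WT-labelled and 8.58% in the KO-labelled library, and the interval of the difference (1.10 percentage points) ran from -0.20 to 2.37. It was 3.31 (1.83 to 4.79) with a stricter cell filter and 2.59 (1.21 to 3.97) with doublets removed.

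Egln3 had the highest ratio that both libraries gave, at 103 and 109 CPM in the cluster against 14.6 and 18.2 CPM outside it (2.82 and 2.57). Ndrg1 stood at 502 and 608 against 81.1 and 112 CPM (2.63 and 2.45), Bnip3 at 588 and 660.3 against 117 and 153 CPM (2.33 and 2.11), and Ankrd37 at 20.4 and 23.3 against 3.63 and 5.52 CPM (2.49 and 2.07). P4ha2, low in macrophages as a class, stood at 44.6 and 64.1 against 10.2 and 11.3 CPM (lower interval bounds 1.62 and 2.13). All 5 of these genes were thus at least 4 times their level in the other macrophage-like cells in each library. Adm had 18.3 CPM in the cluster and 1.12 CPM outside it in the KO-labelled library, a ratio of 4.04 (3.14 to 4.96), and too few UMIs in the WT-labelled one.

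Glucose uptake and glycolysis were raised in a narrower band than in the tumor cells. Slc2a1 stood at 490.1 and 556 against 163 and 206 CPM (1.59 and 1.44) and Hk2 at 247 and 334 against 99.0 and 114 CPM (1.32 and 1.55). Aldoa (1.28 and 1.20), Pgk1 (1.21 and 1.04), Tpi1 (1.19 and 1.14), Gpi1 (1.14 and 1.20) and Pfkp (1.06 and 1.09) reached 1 in both libraries. Pfkfb3 (1.03 and 0.95), Pkm (1.03 and 0.91), Gapdh (0.91 and 1.03) and Pgam1 (0.95 and 0.81) lay about there. Ldha (0.73 and 0.78), Slc16a3 (0.77 and 0.87), Pfkl (0.69 and 0.64), Hk1 (0.81 and 0.64) and Eno1 (0.53 and 0.62) were lower, and the intervals of Aldoc (0.30 and 0.24) and Pdk1 (0.54 and 0.07) lay close to or across 0.

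Vegfa was high throughout these macrophages and higher in cluster 4, at 1025 and 1362 CPM against 345 and 617 CPM (1.57 and 1.14). Mif was raised by 1.05 and 1.16, P4ha1 by 1.24 and 1.07, Egln1 by 1.33 and 1.39, Kdm3a by 1.04 and 1.59, and Bnip3l by 1.54 and 1.28. Higd1a (0.66 and 0.78), Mxi1 (0.63 and 0.75) and Ddit4 (0.86 and 0.71) moved by less than 1. Car9 stood at 10.7 and 13.4 CPM in the cluster against 18.4 and 20.1 CPM outside it.

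Dissociation stress genes moved with this macrophage cluster as well. Of 14 such genes, 5 and 7 were higher by 1 or more in cluster 4, none was lower by 1, and the list median was 0.79 and 1.12, against -0.26 and -0.27 in tumor cell-like cluster 7. Their part in the raised levels was not tested. The proliferation list had a median of -1.59 and -1.61. The summed level of the 14 genes listed for the tumor cell line was 83.7 CPM in cluster 4, against 50.0 to 132 CPM in 6 others and 298 CPM in cluster 7, the macrophage-like cluster led by H19, Rhox5 and Sox9.

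The hypoxia-high clusters of both classes shared most of their raised genes, but both were picked by their level of the same other hypoxia targets. As most genes of the set were raised in each cluster, a large overlap was likely beforehand. Of the 20 genes raised in the tumor cells and the 18 raised in the macrophages, 15 were the same, which is 75.0% of the first and 83.3% of the second list, with doublets kept. Hk1, Aldoc, Mxi1, Higd1a and Car9 reached 1 only in the tumor cluster, and Pfkp, Tpi1 and Mif only in the macrophage cluster; whether these 8 genes differ between the classes was not tested. Over the 33 genes with values in both, the mean ratios had a Pearson r of 0.47 and a Spearman rho of 0.55, a description across genes that were measured in the same libraries. Over all 10520 genes tested in both classes, 247 were raised in the tumor cluster, 294 in the macrophage cluster and 61 in both (24.7% and 20.7%). These shares are no matching baseline for a set in which most genes were raised. Tnfrsf9, which encodes the costimulatory receptor 4-1BB, was at the head of the shared genes, with 562 and 541 CPM in tumor cell-like cluster 7 and 208 and 203 CPM in macrophage-like cluster 4, and ratios of 3.11 and 3.25 in the first and 3.87 and 3.55 in the second.

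Cells could also be ordered by glycolysis alone. Cells thinned to 1500 UMIs were put into 4 equal bins by the share of UMIs from the 15 genes of glucose uptake and glycolysis, and the other 19 genes, which did not set the bins, were read in them. In tumor cell-like cells 16 of the 19 were higher by 1 or more in the highest than in the lowest bin in both libraries, against 1.57% of 9667 genes tested. Bnip3 went from 83.4 to 681 CPM in the WT-labelled and from 95.9 to 947 CPM in the KO-labelled library (3.03 and 3.30), Car9 from 57.7 to 481 and from 46.2 to 707 CPM (3.06 and 3.94), and Ankrd37 from 12.4 to 101 and from 15.4 to 177 CPM (3.02 and 3.52). Ddit4 (0.79 and 1.11) and Mif (0.87 and 0.82) stayed under 1 in at least 1 library, and Adm had too few UMIs. The summed level of the 19 genes was 2816, 3808, 5219 and 8511 CPM from the lowest to the highest bin of the WT-labelled library and 2876, 3983, 6202 and 10340.4 CPM in the other. The 14 proliferation genes went the other way, from 3787 to 2378 and from 3937 to 2191 CPM.

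In macrophage-like cells 10 of the 19 genes reached 1 in both libraries, against 1.41% of 7805 genes tested. Bnip3 went from 48.6 to 367 and from 56.1 to 463 CPM (2.92 and 3.05), Slc16a3 from 45.9 to 198 and from 64.5 to 200.2 CPM (2.11 and 1.64), and Mif from 237 to 722 and from 210.1 to 815 CPM (1.61 and 1.96). Car9 went from 15.3 to 24.3 and from 14.4 to 17.4 CPM, with intervals that crossed 0. In both classes depth before thinning differed between bins, from 6042 to 7882 UMIs at the median in tumor cell-like cells of the WT-labelled library.

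**Figure D3:**
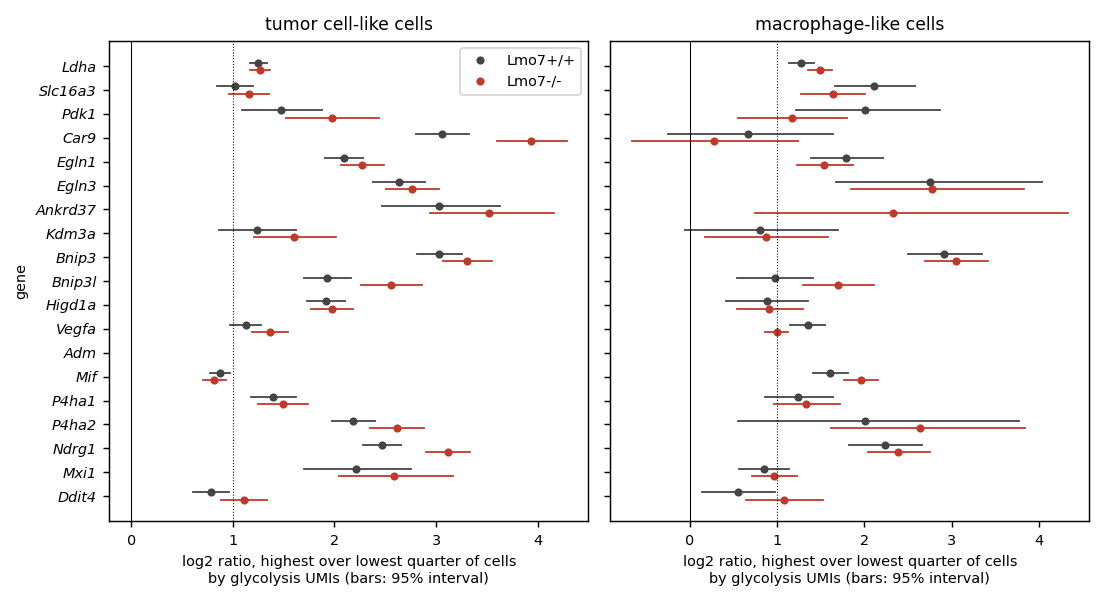
Log2 ratio of each of the 19 genes in the highest over the lowest of 4 bins of cells ranked by their share of glycolysis UMIs, in tumor cell-like (left) and macrophage-like cells (right), WT-labelled in grey and KO-labelled in red, with 95% intervals of counting error. Bnip3 lies near 3 in both classes, while Car9 lies above 3 on the left and below 1 on the right.

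A second tumor cluster divided the 34 genes by where their proteins are made. Tumor cell-like cluster 3 (1029 and 835 cells, led by Nusap1, Mki67 and Vgll4) had a mean mitochondrial share of UMIs of 0.493% and 0.344%, against 7.21% and 7.04% in the other tumor cell-like cells, and a median of 2182 and 1922 UMIs against 6461 and 6910. Of the 7 genes whose proteins enter the endoplasmic reticulum (ER) as secreted, membrane or resident proteins, 6 reached 10 CPM outside the cluster and 5 of those were lower in it by 1 or more in both libraries. Slc2a1 stood at 52.1 and 77.3 against 286 and 403 CPM (-2.46 and -2.38), Slc16a3 at 41.5 and 59.4 against 276 and 298 CPM (-2.74 and -2.33), P4ha1 at -2.30 and -2.56, P4ha2 at -2.42 and -2.29 and Car9 at -1.33 and -1.31. Vegfa lay at -0.99 and -0.91.

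None of the 27 other genes was lower by 1 in cluster 3, and their ratios ran from -0.62 to 0.73, with Egln3 at the top (278 and 350 against 167 and 223 CPM). Over all 12902 genes, 8.46% were lower by 1 or more in both libraries in this cluster. A similar division was seen in the other hypoxia targets. Of 8 genes of that list with ER-routed proteins at 10 CPM or more, 7 were lower by 1 or more, among them Plod1 (13.6 and 14.5 against 88.5 and 70.8 CPM) and Tfrc, and Cxcr4 was not. Of 10 others none was, and these ran from -0.42 to 0.62. Hmox1 (-0.17 and -0.12) and Hilpda (-0.06 and -0.12) were counted among these 10, though both proteins are found at the ER. With genes of low counts included, 8 of 14 ER-routed and 1 of 13 other genes of that list were lower by 1 or more. The division by route was made after the values of the 34 genes in this cluster had been seen, and the part of the low mitochondrial share and low depth in it was not tested.

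**Figure D4:**
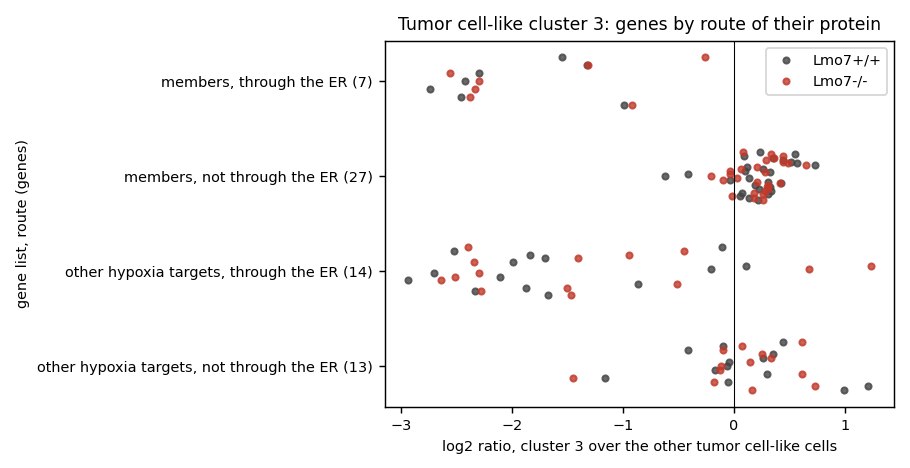
Log2 ratio of single genes in tumor cell-like cluster 3, the cluster with few mitochondrial UMIs, over the other tumor cell-like cells, by list and by whether the protein is routed through the endoplasmic reticulum (ER), WT-labelled in grey and KO-labelled in red, with genes of low counts included. The ER-routed genes spread from about -3 upwards, while the 27 genes with other routes lie between -0.62 and 0.73.

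The lowest levels of the set were seen in tumor cell-like cluster 8 (led by Ccl2, Zdhhc2 and Hspa1b), where 11 of the 34 genes were lower by 1 or more in both libraries, against 8.4% of genes tested, and none was higher by 1, against 1.74%. Aldoc stood there at 8.56 and 6.22 CPM (-3.34 and -3.83), Car9 at 52.8 and 45.2 CPM (-2.00 and -2.66), and Egln3 at 54.9 and 70.1 CPM (-1.68 and -1.86). It held 188 cells of the WT-labelled and 539 of the KO-labelled library, 2.55% and 10.2% of tumor cell-like cells. The KO-labelled library thus had larger shares of both the highest and the lowest cluster.

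The other clusters moved few of the genes. Tumor cell-like cluster 1, the Krt16 state, had only Aldoc higher by 1 in both libraries (134 and 134 against 56.9 and 58.9 CPM), against 0.24% of genes tested, and none lower, against 4.11%. Cluster 2, with the S-phase genes Tk1 and Chaf1b among its leading genes, had Aldoc, Ndrg1, P4ha2 and Car9 lower, against 3.69%. Cluster 5, led by Cdc20 and Plk1, had Ndrg1 lower (117 and 142 against 299 and 377 CPM), against 2.47%. The mesenchymal-marked cluster 6 had Pfkfb3 (45.4 and 67.2 against 19.3 and 18.0 CPM) and Adm higher, against 4.61%, and none lower, against 2.54%. Cluster 4, which held macrophage RNA (Lyz2 at 272 CPM), had none higher, against 5.29%.

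Macrophage-like clusters differed less still. Cluster 7, which held tumor cell RNA, had Egln3 (38.4 and 80.9 against 18.7 and 22.4 CPM) and Car9 (38.4 and 67.2 against 17.02 and 17.5 CPM) higher by 1, against 5.68% of genes tested. Slc2a1 and Aldoc were lower in cluster 8, against 2.75%, and Ddit4 was lower in cluster 5 (24.2 and 40.1 against 88.5 and 85.7 CPM), against 3.41%. No gene of the set was higher by 1 in clusters 1 (0.0272% of genes tested), 2 (4.22%), 5 (1.63%) and 6 (1.35%). None was lower by 1 in clusters 1 (2.81%), 2 (1.5%) and 3 (3.49%).

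Small host populations had their own patterns. Among T or NK-like cells, Vegfa was concentrated in cluster 5, which is led by Gzma, Klra8 and Ncr1 and had the highest level of the NK markers, at 585 (475 to 712) and 553 (426 to 707) CPM against 84.9 and 57.9 CPM in the other cells of the class. Of the 32 genes tested, it alone was higher by 1 in both libraries there, against 2.83% of genes tested, while Gapdh and Mxi1 were lower. In T or NK-like cluster 6 (113 cells, led by Aqp1, Cd63 and Col6a1, with the macrophage gene Lyz2 at 334 CPM) 9 of 32 genes were higher by 1, against 7.08%, among them Car9 (79.3 and 66.5 against 10.4 and 6.91 CPM) and P4ha2. In cluster 3, led by the regulatory T cell gene Foxp3, Slc16a3, Mxi1 and Ddit4 (544 and 606 against 199 and 229 CPM) were higher by 1, against 3.52%, and Vegfa was lower, against 4.02%. Among dendritic-like cells, the 63 cells of cluster 2 (led by Cacnb3, Fscn1 and Cd200) had Pfkfb3 at 468 and 1108 CPM against 28.5 and 43.3 CPM, and Ndrg1 at 713 and 704 against 315 and 261 CPM. In the same 63 cells 8 genes were lower by 1 or more in both libraries, among them Pkm (60 and 36 UMIs), Ldha (46 and 17) and Slc2a1 (8 and 4). Hk2 (3 and 1 UMIs), Aldoc (2 and 2), Pfkl (1 and 1) and Pdk1 (1 and 1) rested on very few UMIs in these cells. The intervals of Pdk1 in both libraries and of Pfkl in the KO-labelled library crossed 0. Mxi1 was higher there too, by 0.82 and 1.63. Here 7.77% of genes tested were higher and 10.1% lower.

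Between genotypes, ratios were marked at 0.5 and not at the 1 used between states, so the counts below cannot be set against those of the clusters. In tumor cell-like cells 2 of the 34 genes were higher in the KO-labelled library by a log2 ratio of 0.5 or more, against 4.63% of 14309 genes tested, and none was lower by as much, against 6.48%. The ratio was above 0 for 31 of the 34 genes, with a median of 0.12 against -0.04 over all genes. The share of all genes above 0 was not computed, so this count does not set the 34 genes apart from others. Ankrd37 stood at 34.8 CPM in the WT-labelled and 58.5 CPM in the KO-labelled library, a ratio of 0.75 (95% interval 0.66 to 0.83). Adm reached 0.71 (0.21 to 1.21) from 65 and 76 UMIs. Slc2a1 (276 and 388 CPM, 0.49), Bnip3 (292 and 394 CPM, 0.43), Egln3 (0.41) and Ndrg1 (0.37) came next. The enzymes of glycolysis ran from -0.14 for Aldoc to 0.26 for Hk2, and Ddit4 (-0.06) and Pkm (-0.02) were the other 2 genes below 0.

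The ratios were also taken within clusters. Within cluster 7 alone, Slc2a1 differed by 0.24, Bnip3 by 0.16, Egln3 by 0.20, Ndrg1 by 0.11 and Ankrd37 by 0.50. With all 8 tumor clusters weighted equally, Slc2a1 lay at 0.31 and Ankrd37 at 0.62. The ratio of Ankrd37 was above 0 in each of the 8 clusters, from 0.47 to 1.08.

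In macrophage-like cells 5 genes were higher in the KO-labelled library by 0.5 or more, against 5.1% of 12081 genes tested, and none was lower by as much, against 7.9%. The count was 3 under 4 of the alternatives, doublets removed among them, and 2 with states weighted equally. Vegfa stood at 383 CPM (7049 UMIs) in the WT-labelled and 672 CPM (13001 UMIs) in the KO-labelled library, a ratio of 0.81 (0.77 to 0.85). The others were Adm (1.03 and 2.38 CPM, 1.20), Ankrd37 (4.57 and 6.82 CPM, 0.58), Pfkp (59.7 and 84.6 CPM, 0.50) and Ndrg1 (105 and 148 CPM, 0.50). The median of the set was 0.18, against -0.09 over all genes, and 31 of 34 genes lay above 0. Of the 3 that did not, Eno1 lay at -0.08, Ddit4 at -0.06 and Gpi1 at -0.01. The share of all genes above 0 was not computed for this class either. The lower interval bounds were above 0 but below 0.5 for Pfkp (0.39), Ndrg1 (0.42), Ankrd37 (0.17) and Adm (0.40).

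The Vegfa ratio was above 0 in each of the 8 macrophage-like clusters, from 0.23 in cluster 8 (led by Retnla, Cbr2 and Folr2, with an interval that crossed 0) to 1.11 in cluster 6, the interferon state led by Ifit3, Ifit2 and Ifit3b. In cluster 4 it was 0.41 (1025 and 1362 CPM), and in clusters 1, 2 and 3 it was 0.70, 0.69 and 0.58. Cluster 3, led by Ccl5, Il18bp and Ccl8, held 5.11% of macrophage-like cells in the WT-labelled and 21.7% in the KO-labelled library and had Vegfa at 550 and 822 CPM. With the 8 clusters weighted equally the class ratio was 0.64, and in cells free of UMIs of the tumor cell line list it was 0.83. Vegfa was also higher in monocyte-like cells of the KO-labelled library (459 and 654 CPM, 0.51), as were 5.22% of genes tested by 0.5 or more, and no gene of the set was lower by 0.5 in that class (9.01% of genes tested). Hif1a, outside the set, stood at 77.3 and 107 CPM in macrophage-like cells (0.48) and at 85.2 and 91.1 CPM in tumor cell-like cells (0.10).

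**Figure D5:**
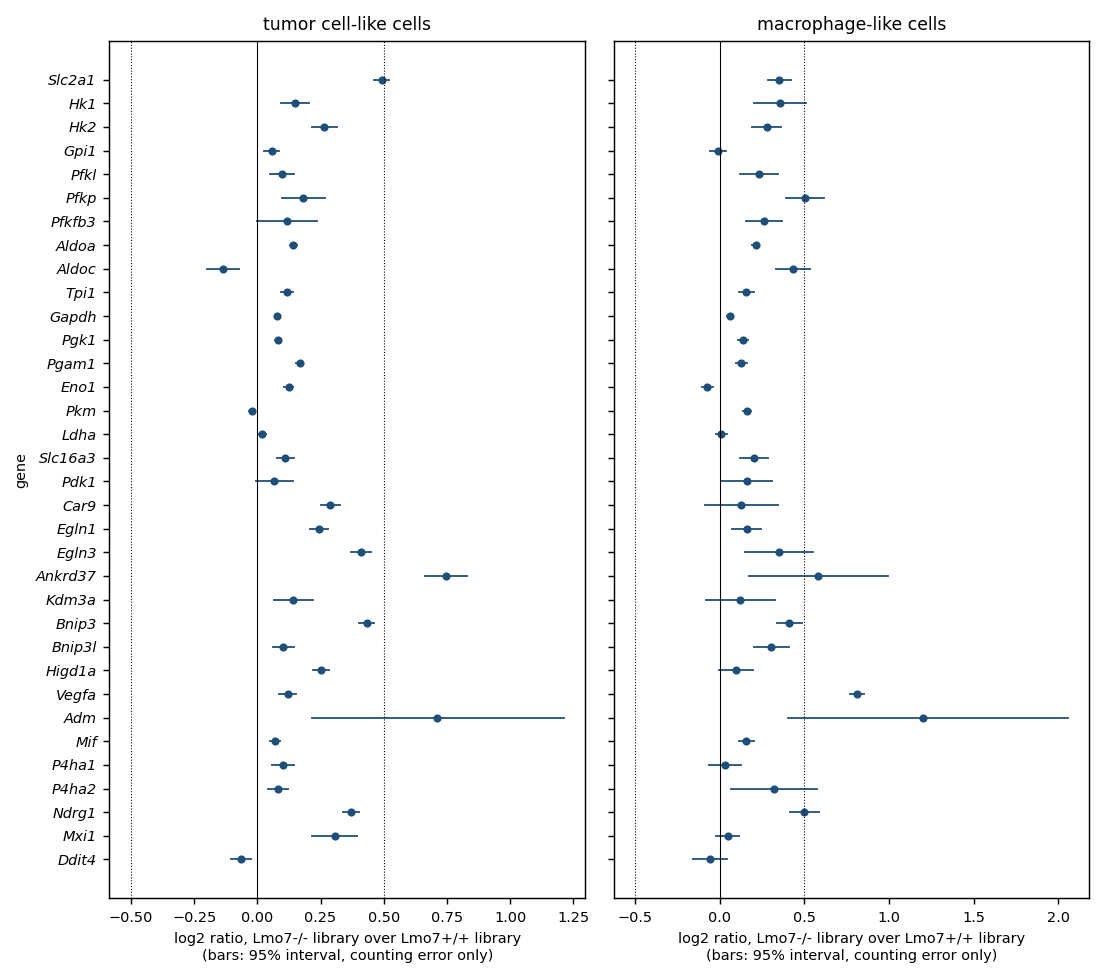
Log2 ratio of the KO-labelled over the WT-labelled library for each of the 34 genes in tumor cell-like (left) and macrophage-like cells (right), with 95% intervals of counting error; dotted lines mark -0.5 and 0.5. Vegfa lies at 0.12 in the tumor cells and at 0.81 in the macrophages, and Ankrd37 lies above 0.5 in both.

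The rarer classes gave wide intervals. In T or NK-like cells of the KO-labelled library Vegfa was lower (133 and 84.5 CPM, -0.66, interval -0.95 to -0.37) and Egln3 was higher (37.1 and 59.0 CPM, 0.67). NK-marked cluster 5 made up 7.12% of the class there, against 13.4% in the WT-labelled library. The part of this cluster in the Vegfa ratio was not tested. Car9 was lower as well (37 and 31 UMIs, -0.58, interval -1.31 to 0.15), in a class where 5.83% of genes tested were higher and 12.5% lower. In dendritic-like cells Pfkfb3 was higher (73.2 and 144 CPM, 0.97) and P4ha2 lower (24 and 7 UMIs, interval -2.66 to 0.05). In this class 21.8% of genes tested differed by 0.5 or more and 8.11% were higher. Of the Pfkfb3 UMIs, 65 of 100 and 96 of 132 lay in the 36 and 27 cells of dendritic-like cluster 2. In fibroblast-like cells the set had a median of -0.40, with 10 genes lower by 0.5 or more and 2 higher, in a class where 19.6% and 13.2% of all genes tested were lower and higher by as much. Adm was 1 of the 2 that were higher, at 38.4 and 161 CPM (2.07, interval 1.41 to 2.77, from 25 and 89 UMIs in 128 and 97 cells). In fibroblast-like cells the 4 tumor cell line genes had a median of 22.8% and 25.3% of their tumor level. In endothelial-like cells that median was 96.5% and 95.9%, with single genes at up to 266% and 208%. The 4 genes are therefore no measure of tumor cell RNA alone in these rarer classes. The part of tumor cell RNA in the ratios of fibroblast-like cells was not tested.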

How the data were processed

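MC38 tumors of Lmo7+/+ and Lmo7-/- hosts were profiled as 1 single-cell RNA library each. The deposited values are raw UMI counts per gene and droplet, which the authors made with Cell Ranger 2.1.1 on mm10 per the labels' processing notes, while the matrix header names software 3.0.0; the gene annotation is not given in the sources used here. The barcodes have 24 bases. The members and lists were chosen with earlier results of these data known.

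Droplets entered with 500 or more genes, 1000 or more UMIs and a mitochondrial share of no more than 15%. Log-normalized values of 2000 variable genes, with the 34 genes and other hypoxia and glucose genes (91 in all) left out, gave 30 principal components, a graph of 20 neighbours and Louvain clusters at resolution 0.5 (igraph 0.11.9), over all cells and again within a class. Clusters were named by markers, and tumor cells also by their chromosome profile. Doublets were marked (Scrublet in Scanpy 1.11.5, 2.82% and 2.37% of cells) and removed in an alternative only. UMIs were summed per class and library and given as CPM. Ratios were taken for genes with at least 20 UMIs. With 1 library per genotype no test was made. A ratio of 0.5 (log2) between libraries, or 1 between states in both libraries, marks a gene. Exact Poisson, binomial or ratio intervals (95%) cover counting error only. The ratio step was tested on simulated data. All 34 genes are named, and clusters by their leading genes by fold at 50 CPM or more. The alternatives were other cell filters, resolution 1.0, doublets removed, the set used in clustering, TMM library sizes (edgeR 4.0.16), thinning and equal weights for states. Positions are on GRCm38, from RefSeq and GENCODE.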

Additional observations from a re-analysis of the deposited data

Results flagged for a closer look

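The ratio of the KO-labelled over the WT-labelled library went in opposite directions in different classes for 2 genes. Only ratios of 0.5 or more in size from at least 100 UMIs in both libraries together were counted. Vegfa was higher in macrophage-like (0.81 on the log2 scale) and monocyte-like cells (0.51) and lower in T or NK-like cells (-0.66). Adm was higher in tumor cell-like (0.71) and fibroblast-like cells (2.07) and lower in endothelial-like cells (-0.66). Below these limits other genes did so too. Among them were Slc2a1 (0.49 in tumor cell-like, -0.62 in fibroblast-like cells) and Egln3 (0.67 in T or NK-like, -0.65 in endothelial-like cells). With 1 library per genotype these differences between classes were not tested. The other row named Aldoa, which entered no comparison, held 4 UMIs in the WT-labelled and 6 in the KO-labelled library, above the limit of 3 counts.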

How the results depend on the processing

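No paired analysis was possible because each genotype has 1 library. Of the recomputed counts and shares, 101 stayed within their limits and 14 moved, and of the values of single genes 1208 stayed and 192 moved, with no reversal of a value past its threshold. The number of genes higher by 0.5 in macrophage-like cells of the KO-labelled library went from 5 to 3 with the lenient filter, with doublets removed, with the set used for clustering and without cells that held a UMI of the tumor cell line list, and to 2 with states weighted equally; in tumor cell-like cells it went from 2 to 4 in thinned cells. The share of the hypoxia-high tumor cluster differed by 3.27 (lenient filter), 5.43 (strict filter) and 3.46 percentage points (doublets removed), and by 5.90 without the clusters of few mitochondrial UMIs and of macrophage RNA, an alternative chosen after seeing the data. The share of the Arg1-state cluster differed by 3.31 (strict filter) and 2.59 (doublets removed), and without doublets only 10 genes reached 1 there. Split into 2 bins, 10 of 19 genes reached 1 in tumor cell-like cells. The causes were not tested. TMM sizes moved the median of all genes in macrophage-like cells from -0.09 to 0.001, and the median of the set to 0.28. Genes with few UMIs, such as Adm and Ankrd37 in host cells, limit precision.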
